A study of Mus musculus with 10 samples.

Results

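The change that sodium arsenite made in cultured mouse cortical neurons was estimated once for both genotypes of the study, wildtype and ATF4-deficient. All 10 of the 10 arrays entered, 6 from arsenite-treated and 4 from vehicle-treated cultures, and each gene got 1 arsenite value after a constant genotype difference had been taken into account. The arsenite group held 2 ATF4-deficient and 4 wildtype arrays, and the vehicle group 2 ATF4-deficient and 2 wildtype arrays. Neurons came from the cortex of embryos at day 14.5 to 15.5, were treated on day 7 in culture, and received 5 µM sodium arsenite or vehicle for 12 h. Total RNA was read on Affymetrix whole-transcript arrays, which place probes along each transcript. The labels name ATF4 deficiency without the allele. They call the samples biological replicates without naming embryos, litters or cultures. The p-values therefore cover just the variation among these arrays, and how much of it is technical is not known. All values below are log2 array signals, and differences are arsenite minus vehicle on that scale unless a fold is named.

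Arsenite is a trivalent arsenic compound that binds protein thiols. Cells are known to answer it along several routes: KEAP1 releases the transcription factor NRF2, which drives antioxidant and glutathione genes, HSF1 drives heat shock proteins, and kinases that phosphorylate eIF2 alpha slow translation and raise ATF4, a factor for amino acid transport, amino acid synthesis and tRNA charging. In neurons another large class of regulated genes, the immediate early genes, follows synaptic activity and calcium entry through CREB and related factors.

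The arrays matched their labels on the targeted gene. Atf4 signal lay at 7.48 to 7.70 on the 4 ATF4-deficient arrays and at 9.09 to 9.91 on the 6 wildtype arrays, and its pooled arsenite difference of 0.23 (SE 0.12) had an adjusted p of 0.386. All 15 of 15 pan-neuronal markers lay above a dim reference of 6.63, the 90th percentile of olfactory and vomeronasal receptor genes. Markers of other cells were counted too: 11 of 14 astrocyte, 11 of 12 oligodendrocyte lineage, 8 of 13 microglial, 10 of 15 mural or fibroblast, 12 of 14 progenitor and 2 of 11 endothelial markers were above that level. Over all genes 13524 of 22180 were above it, so such counts alone do not show that a cell type was present. In such bulk RNA fewer cells of a type and less RNA per cell cannot be told apart. Array medians were 6.75 to 6.81, and 1 array, the ATF4-deficient arsenite replicate 2, was separated from the rest by principal component analysis (29.4 on component 1, the remaining arrays between -18.2 and 8.70). Xist, which is expressed from the inactive X chromosome, varied from 6.26 to 12.26 between arrays within both treatments, and its arsenite difference was -0.66 (adjusted p = 0.892).

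Arsenite changed 583 of 22180 genes at an adjusted p of 0.05, a share of 2.63% of all genes. Of these 299 rose (1.35%) and 284 fell (1.28%). These shares of all genes are the background for each list and family count below. Most changes were small: 18 genes moved by more than 1 log2 unit and 355 by less than 0.5, with a median size of 0.457 and a median SE of 0.0867. The median over all genes was -0.01. On 569 of the 583 genes every arsenite array lay on one side of every vehicle array of its own genotype. Of all genes 8.47% showed that arrangement (3.64% above and 4.82% below). The calls were made on these same arrays and favour such genes, so the 569 is no independent support for the calls. The largest rises and falls named by rule below were also required to show this arrangement. For those genes, a remark that arrays did not overlap within a genotype restates that requirement. The groups did not overlap at all over the pooled 6 and 4 arrays for 408 of the 583. The share of all genes with that pooled arrangement was not counted, so the 408 has no background and is no support for the calls. The count depended on single arrays, and 6 of them moved it more than 1.5 times when left out: it was 249 and 313 without wildtype vehicle replicates 1 and 2, 305 and 326 without ATF4-deficient vehicle replicates 1 and 2, 375 without ATF4-deficient arsenite replicate 2 and 372 without wildtype arsenite replicate 2. The calls kept with any single array left out numbered 166, of which 87 were rises and 79 falls.

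**Figure D1:**
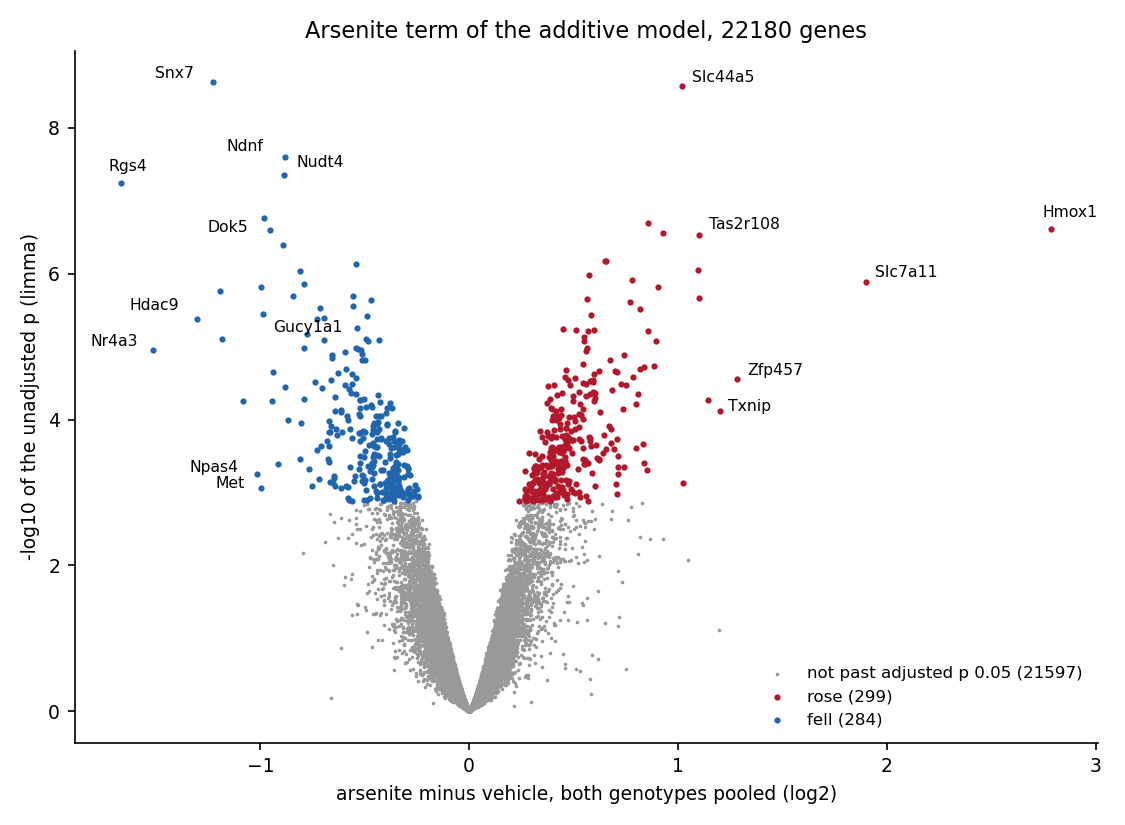
Arsenite minus vehicle log2 difference (x axis) against -log10 of the unadjusted p from the additive model (y axis) for all 22180 genes, with the 299 rises and 284 falls at an adjusted p of 0.05 coloured and the largest named. Hmox1, Slc7a11 and Zfp457 reach farthest to the right, Rgs4 and Nr4a3 farthest to the left, and Slc44a5 and Snx7 have the smallest p-values.

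The largest rise of all was that of Hmox1, which encodes heme oxygenase 1, the enzyme that breaks down heme and a known target of NRF2. Hmox1 lay at 9.90 and 9.18 in ATF4-deficient arsenite arrays, against 8.05 and 6.67 in ATF4-deficient vehicle arrays, and at 11.02, 11.04, 10.68 and 10.72 in wildtype arsenite arrays, against 7.48 and 7.76 in wildtype vehicle arrays. All 6 arsenite arrays were above all 4 vehicle arrays, and within arsenite the wildtype arrays were the higher ones. Signal was 6.91-fold higher with arsenite (2.79 log2, SE 0.27, adjusted p = 0.000598), and the difference stayed between 2.59 and 3.12 log2 with any single array left out. Slc7a11, the cystine importer that feeds glutathione synthesis and is a target of both NRF2 and ATF4, rose 3.74-fold (1.90 log2, SE 0.22, adjusted p = 0.00143). Its signal was 6.79 and 6.41 in ATF4-deficient arsenite arrays, against 5.51 and 4.82 in ATF4-deficient vehicle arrays, and 8.70, 8.87, 8.67 and 9.12 in wildtype arsenite arrays, against 6.13 and 7.04 in wildtype vehicle arrays. Arsenite and vehicle arrays did not overlap within either genotype, but the ATF4-deficient arsenite arrays lay below wildtype vehicle replicate 2, and 3 of the 4 vehicle arrays (both ATF4-deficient arrays and wildtype replicate 1) and ATF4-deficient arsenite replicate 2 were under the dim reference of 6.63. The size of the fold is uncertain to that extent.

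The promoter window of Slc7a11, 250 bases before to 50 after its start, is shown because it holds matches to the composite element that ATF4 binds together with C/EBP factors. The sequence is from RefSeq (GRCm38.p6, chr3:50443564-50443863, minus strand, written 5′ to 3′), and capitals mark the matches to TGATGNAA on either strand, which begin at positions -66 and -47 relative to the transcription start.
Slc7a11: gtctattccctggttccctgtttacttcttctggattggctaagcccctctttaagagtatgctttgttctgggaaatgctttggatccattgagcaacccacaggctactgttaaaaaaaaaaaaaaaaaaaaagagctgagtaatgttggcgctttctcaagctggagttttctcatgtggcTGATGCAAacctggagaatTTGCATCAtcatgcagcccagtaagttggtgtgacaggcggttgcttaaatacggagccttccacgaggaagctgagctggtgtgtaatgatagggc
Such a match is a description of the letters and no evidence of binding. Of 299 genes that rose, 221 had a promoter window in the RefSeq table, as did 223 of 284 that fell and 16918 of all 22180. TGATGNAA occurred in 5.88% of windows of genes that rose, 0.448% of those that fell and 3.48% of all.

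Among 20 measured NRF2 targets, 6 rose (30%, against 1.35% of all genes) and 0 fell, with a median difference of 0.20 against -0.01 over all genes. Beside Hmox1 and Slc7a11 these were Gclc and Gclm, the catalytic and modifier subunits of the ligase that makes the glutathione precursor, Gsr, which reduces oxidised glutathione, and Txnrd1, which reduces thioredoxin. Txnrd1 lay at 9.60 and 9.91 in ATF4-deficient arsenite arrays, against 8.84 and 9.10 in ATF4-deficient vehicle arrays, and at 9.73, 9.91, 9.64 and 9.65 in wildtype arsenite arrays, against 9.20 and 9.35 in wildtype vehicle arrays. Arsenite was above vehicle on every array (0.60 log2, SE 0.10, adjusted p = 0.00959), by 0.78 in ATF4-deficient and 0.46 in wildtype neurons. Gclc rose by 0.58 (SE 0.09, adjusted p = 0.00721), Gsr by 0.58 (SE 0.11, adjusted p = 0.0174) and Gclm by 0.54 (SE 0.11, adjusted p = 0.024). The Gclm call was lost without wildtype vehicle replicate 1 or 2, ATF4-deficient vehicle replicate 1 or ATF4-deficient arsenite replicate 2, and that of Gsr without wildtype vehicle replicate 1 or ATF4-deficient vehicle replicate 1. Among the best expressed members that did not pass, the autophagy receptor Sqstm1 differed by 0.28 (adjusted p = 0.0506), thioredoxin gene Txn1 by 0.26 (adjusted p = 0.155) and the ferritin heavy chain gene Fth1 by 0.05 (adjusted p = 0.825). Nqo1, a standard NRF2 reporter looked up after its value was seen, differed by -0.01 (adjusted p = 0.962). In the heme and iron list of 15 genes, Hmox1 was joined by Bach1, the heme-sensing repressor of Hmox1, which rose by 0.48 (SE 0.08, adjusted p = 0.0123) and lost the call without wildtype vehicle replicate 1.

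**Figure D2:**
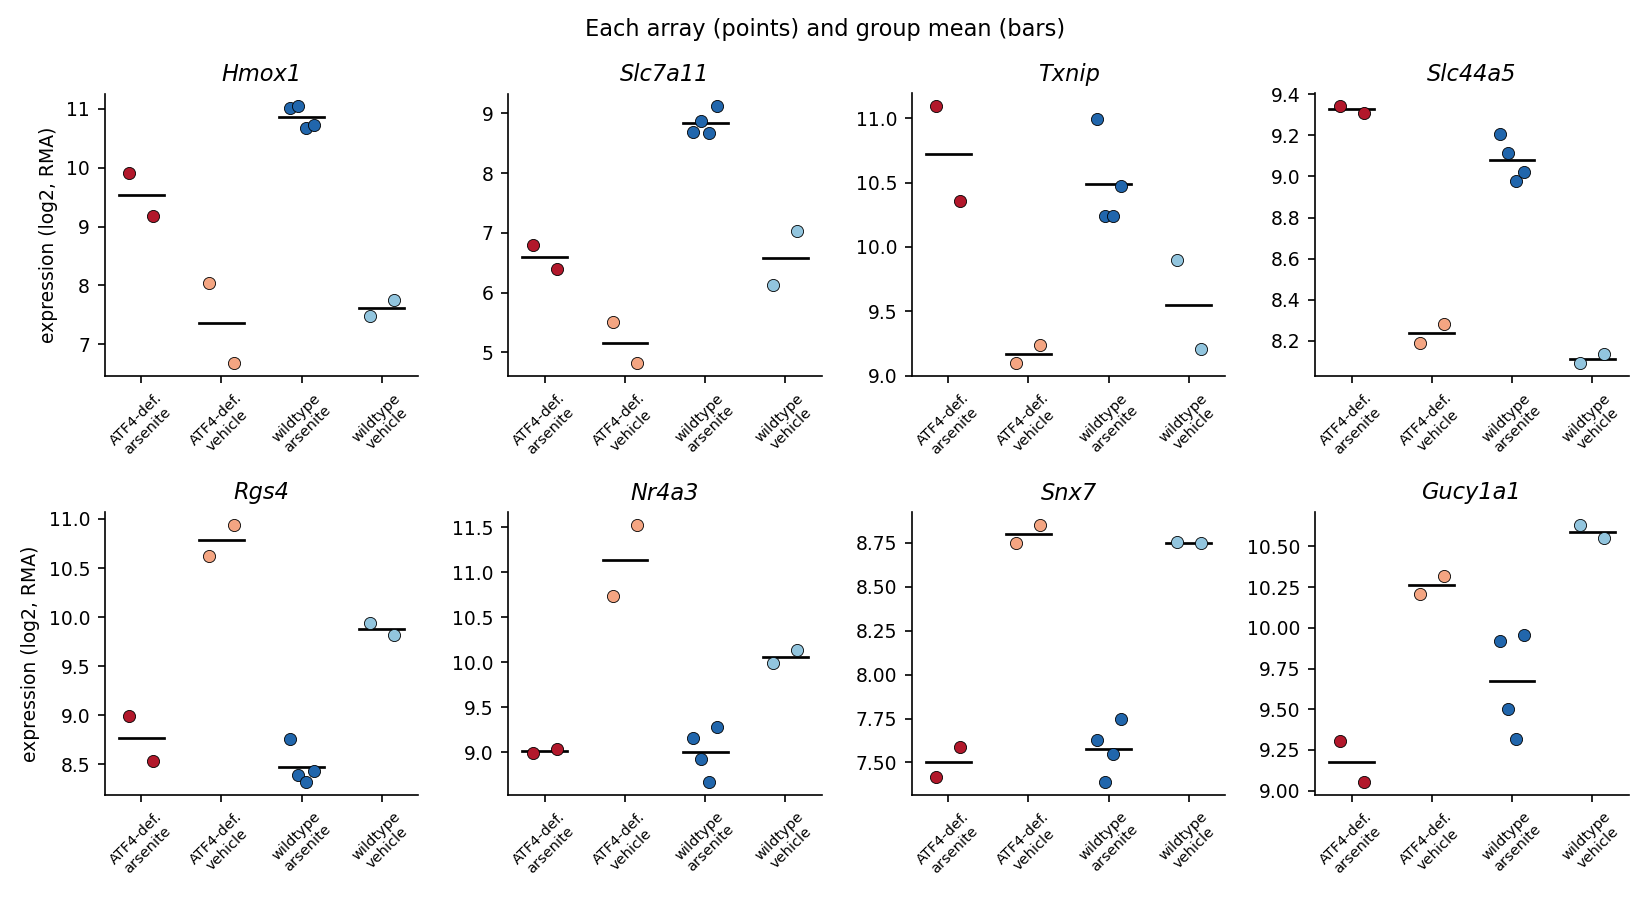
Log2 signal on each of the 10 arrays (points) with the group mean (bar) for 8 genes, in the order ATF4-deficient arsenite, ATF4-deficient vehicle, wildtype arsenite and wildtype vehicle from left to right. In Hmox1, Slc7a11, Txnip and Slc44a5 the arsenite points of each genotype lie above its vehicle points, and in Rgs4, Nr4a3, Snx7 and Gucy1a1 they lie below.

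Txnip, the thioredoxin-binding alpha-arrestin that also removes glucose transporters from the cell surface, was a large rise on an already high signal. Txnip lay at 11.09 and 10.35 in ATF4-deficient arsenite arrays, against 9.10 and 9.24 in ATF4-deficient vehicle arrays, and at 10.99, 10.24, 10.24 and 10.47 in wildtype arsenite arrays, against 9.90 and 9.21 in wildtype vehicle arrays. Every arsenite array exceeded every vehicle array, and wildtype vehicle replicate 1 was the vehicle array nearest to them. Signal was 2.3-fold higher (1.20 log2, SE 0.21, adjusted p = 0.0114). The thioredoxin list of 14 genes had 2 rises, Txnrd1 and Txnip, and 0 falls, and both calls were kept whichever array was left out. A family count made after these values were seen covered the 6 measured alpha-arrestins, of which 3 rose: Txnip, Arrdc3 and Arrdc4, the last also an arrestin linked to glucose uptake. Arrdc4 lay at 9.76 and 9.65 in ATF4-deficient arsenite arrays, against 8.79 and 8.94 in ATF4-deficient vehicle arrays, and at 9.90, 9.65, 9.65 and 9.68 in wildtype arsenite arrays, against 9.43 and 9.17 in wildtype vehicle arrays, again without overlap (0.60 log2, SE 0.10, adjusted p = 0.00942). Arrdc3, an adaptor in receptor trafficking, rose by 0.60 (SE 0.10, adjusted p = 0.00876), and all 3 calls were kept without any single array.

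Among genes of amino acid supply that ATF4 is known to drive, some rose in the pooled estimate and others did not pass. Of 9 amino acid transporters 4 rose (44.4%, against 1.35% of all genes), with a list median of 0.36: Slc7a11, the arginine and lysine carrier Slc7a1, the leucine carrier Slc7a5 and the serine and alanine carrier Slc1a4. Slc7a1 was 8.49 and 8.59 on ATF4-deficient arsenite arrays, against 8.33 and 7.75 on ATF4-deficient vehicle arrays, and 9.96 to 10.28 on the 4 wildtype arsenite arrays, against 8.73 and 9.36 on wildtype vehicle arrays. The step was present in both genotypes (0.83 log2, SE 0.16, adjusted p = 0.0188). All 4 ATF4-deficient arrays lay below every wildtype array of either treatment. The ATF4-deficient vehicle array at 8.33 lay close under the ATF4-deficient arsenite arrays. The median of the list was 0.15 within ATF4-deficient and 0.66 within wildtype arrays. Its count was 1 without wildtype vehicle replicate 1 or ATF4-deficient vehicle replicate 2, and 2 without wildtype vehicle replicate 2, ATF4-deficient arsenite replicate 2 or any 1 wildtype arsenite array. The heavy chain partner Slc3a2 differed by 0.36 (adjusted p = 0.221), at -0.05 in ATF4-deficient and 0.66 in wildtype neurons.

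Of 14 amino acid synthesis and one-carbon enzymes, 2 rose and 0 fell, with a list median of 0.44 (0.01 in ATF4-deficient and 0.68 in wildtype arrays). Aldh1l2, the mitochondrial formyl-folate dehydrogenase, was 7.85 and 7.59 in ATF4-deficient arsenite arrays, against 7.28 and 7.13 in ATF4-deficient vehicle arrays, and 9.13, 9.31, 9.02 and 9.06 in wildtype arsenite arrays, against 8.10 and 8.49 in wildtype vehicle arrays. The wildtype arrays lay higher under either treatment and arsenite lay above vehicle within each genotype (0.70 log2, SE 0.10, adjusted p = 0.00624). Bcat1, which transaminates branched-chain amino acids, rose by 0.49 (SE 0.10, adjusted p = 0.0217), a call lost without wildtype vehicle replicate 1 or 2. Asparagine synthetase gene Asns differed by 0.38 with an SE of 0.17 (adjusted p = 0.291), being -0.01 in ATF4-deficient and 0.67 in wildtype neurons. Of 12 genes for tRNA charging and export 2 rose, Lars (0.52, adjusted p = 0.043) and Iars (0.48, adjusted p = 0.035), which charge leucine and isoleucine tRNA. The list median was 0.31, at -0.003 in ATF4-deficient and 0.56 in wildtype arrays. The count was 0 without either wildtype vehicle array, wildtype arsenite replicate 2, 3 or 4, ATF4-deficient vehicle replicate 1 or ATF4-deficient arsenite replicate 2, and 1 without wildtype arsenite replicate 1.

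Of 16 genes listed for the integrated stress response 2 rose: Ddit3, the pro-apoptotic factor CHOP, and Vldlr, a lipoprotein receptor. The list median was 0.23, at -0.03 in ATF4-deficient and 0.37 in wildtype arrays. Ddit3 was 8.42 and 8.19 in ATF4-deficient arsenite arrays, against 7.99 and 8.13 in ATF4-deficient vehicle arrays, and 9.02, 9.31, 9.20 and 8.87 in wildtype arsenite arrays, against 7.91 and 8.16 in wildtype vehicle arrays. The 4 wildtype arsenite arrays stood clear of all others, and the ATF4-deficient arsenite arrays were only just above their vehicle arrays. The pooled rise was 0.71 (SE 0.15, adjusted p = 0.0274), made up of 0.25 in ATF4-deficient and 1.06 in wildtype neurons, and the call was lost without wildtype vehicle replicate 1 or 2 or wildtype arsenite replicate 1 or 3. Vldlr rose by 0.31 (adjusted p = 0.0484) and lost the call without any 1 array other than wildtype arsenite replicate 1. Eif4ebp1, which restrains cap-dependent translation, differed by 0.93 (SE 0.27, adjusted p = 0.0924) and Cebpg, an ATF4 partner, by 0.36 (adjusted p = 0.0883). None of 12 eIF2 alpha kinase and phosphatase genes and none of 17 endoplasmic reticulum chaperone genes passed; Canx, a membrane chaperone, differed by 0.17 (adjusted p = 0.289).

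Of 17 cytosolic heat shock genes 3 rose, with a list median of 0.19. Dnajb4, a co-chaperone of HSP70, lay at 8.47 and 8.40 in ATF4-deficient arsenite arrays, against 7.88 and 8.04 in ATF4-deficient vehicle arrays, and at 8.19, 8.13, 8.18 and 8.15 in wildtype arsenite arrays, against 7.73 and 7.73 in wildtype vehicle arrays. Arsenite and vehicle did not overlap, the difference was 0.47 in ATF4-deficient and 0.43 in wildtype neurons, and the call was kept without any single array (0.45 log2, SE 0.06, adjusted p = 0.00303). Hspa1a, the inducible HSP70, rose by 0.71 (SE 0.15, adjusted p = 0.031) and the constitutive Hspa8 by 0.27 (SE 0.06, adjusted p = 0.0293). The list's count was 1 without either vehicle array of either genotype, wildtype arsenite replicate 2 or ATF4-deficient arsenite replicate 2. Hsph1, the HSP110 exchange factor, differed by 0.56 (adjusted p = 0.077) without overlap of its arrays. Of 30 proteasome genes the base ATPases Psmc1 (0.39, adjusted p = 0.0271) and Psmc6 (0.33, adjusted p = 0.0444) rose; the count was 0 without either vehicle array of either genotype, wildtype arsenite replicate 2 or ATF4-deficient arsenite replicate 2, 1 without wildtype arsenite replicate 1 or 3, and 4 without wildtype arsenite replicate 4.

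The metal-binding metallothioneins were variable. Mt2 lay at 12.74 and 11.83 in ATF4-deficient arsenite arrays, against 11.72 and 9.68 in ATF4-deficient vehicle arrays, and at 12.79, 12.65, 12.53 and 12.82 in wildtype arsenite arrays, against 12.14 and 11.95 in wildtype vehicle arrays. Its difference of 1.05 had an SE of 0.33 (adjusted p = 0.129), and Mt1 differed by 0.81 (SE 0.25, adjusted p = 0.12). The called member of the 5 metal-response genes was a fall, that of Slc39a10, a zinc importer (-0.64 log2, SE 0.10, adjusted p = 0.00917). None of 12 genes that move or methylate arsenic passed, nor did any of 16 p53 targets, 15 BCL2 family genes, 11 death receptor genes, 27 respiratory chain genes, 23 calcium and sodium channel genes or 17 cytokine genes. Tnfrsf23, a decoy receptor, differed by 0.83 (adjusted p = 0.0516). Lamp2, a lysosomal membrane protein, was the single rise among 20 autophagy genes (0.46 log2, SE 0.07, adjusted p = 0.00686), the monocarboxylate carrier Slc16a1 the single rise among 19 glycolysis genes (0.31, adjusted p = 0.0276) and Eif5 the single rise among 17 initiation factors (0.44, adjusted p = 0.0344). The calls of Slc16a1 and Eif5 were lost without several single arrays: for Eif5 without wildtype vehicle replicate 1 or 2, wildtype arsenite replicate 2 or 3, ATF4-deficient vehicle replicate 1 or 2 or ATF4-deficient arsenite replicate 2, and for Slc16a1 without wildtype vehicle replicate 1 or 2, wildtype arsenite replicate 2, ATF4-deficient vehicle replicate 2 or ATF4-deficient arsenite replicate 1.

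The largest fall was that of Rgs4, a GTPase activator that switches off Gq and Gi signals and is abundant in cortical neurons. Rgs4 lay at 8.99 and 8.53 in ATF4-deficient arsenite arrays, against 10.62 and 10.94 in ATF4-deficient vehicle arrays, and at 8.76, 8.39, 8.32 and 8.43 in wildtype arsenite arrays, against 9.94 and 9.82 in wildtype vehicle arrays. Arsenite arrays of both genotypes reached the same low range while the ATF4-deficient vehicle arrays were the highest. Signal was 3.17-fold lower with arsenite (-1.67 log2, SE 0.14, adjusted p = 0.000257), and the difference stayed between -1.77 and -1.53 with any single array left out. It was the sole fall among 19 RGS genes, and the best expressed members that did not pass included Rgs2, which differed by -0.47 (adjusted p = 0.0777).

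Genes that neuronal activity induces held more falls than any other list: 8 of 24 fell (33.3%, against 1.28% of all genes) and 0 rose, with a list median of -0.20. The mean signal over the list was 7.29 to 7.42 on ATF4-deficient arsenite arrays, against 7.92 to 7.95 on ATF4-deficient vehicle arrays, and 7.29 to 7.43 on wildtype arsenite arrays, against 7.55 to 7.64 on wildtype vehicle arrays. The NR4A orphan nuclear receptors, transcription factors induced rapidly by depolarisation or cAMP, made up 3 of the falls. Nr4a3 lay at 8.98 and 9.03 in ATF4-deficient arsenite arrays, against 10.74 and 11.53 in ATF4-deficient vehicle arrays, and at 9.16, 8.92, 8.67 and 9.28 in wildtype arsenite arrays, against 9.99 and 10.13 in wildtype vehicle arrays. All arsenite arrays were below all vehicle arrays, and the ATF4-deficient vehicle arrays were highest, so the pooled fall of 2.86-fold (-1.51 log2, SE 0.21, adjusted p = 0.00411) joined -2.13 in ATF4-deficient with -1.06 in wildtype neurons. Nr4a2 was 8.75 and 8.72 in ATF4-deficient arsenite arrays, against 10.04 and 10.19 in ATF4-deficient vehicle arrays, and 8.81, 8.68, 8.47 and 8.46 in wildtype arsenite arrays, against 9.37 and 9.06 in wildtype vehicle arrays. It showed the same order, with a difference of -0.94 (SE 0.14, adjusted p = 0.00634). Nr4a1 fell by 0.77 (SE 0.16, adjusted p = 0.0283), a call lost without wildtype vehicle replicate 1, wildtype arsenite replicate 3, ATF4-deficient vehicle replicate 1 or 2 or ATF4-deficient arsenite replicate 1 or 2. Npas4, an activity-dependent factor of inhibitory synapse formation, lay at 7.04 and 6.58 in ATF4-deficient arsenite arrays, against 8.72 and 8.44 in ATF4-deficient vehicle arrays, and at 7.13, 6.74, 7.02 and 6.75 in wildtype arsenite arrays, against 7.50 and 7.23 in wildtype vehicle arrays. Its arrays did not overlap either (-1.02 log2, SE 0.22, adjusted p = 0.031), but the call was lost without wildtype vehicle replicate 1, wildtype arsenite replicate 2, ATF4-deficient vehicle replicate 1 or 2 or ATF4-deficient arsenite replicate 1 or 2.

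The other 4 called activity genes were Inhba, which encodes the activin A subunit (-0.71 log2, SE 0.09, adjusted p = 0.00204), the AP-1 member Fosl2 (-0.66 log2, SE 0.12, adjusted p = 0.0145), and the zinc finger factors Egr1 (-0.65 log2, SE 0.14, adjusted p = 0.0324) and Egr3 (-0.57 log2, SE 0.12, adjusted p = 0.0274). The call of Egr1 was lost without wildtype vehicle replicate 1 or 2, wildtype arsenite replicate 2 or 3, ATF4-deficient vehicle replicate 1 or ATF4-deficient arsenite replicate 2, and that of Egr3 without wildtype vehicle replicate 1 or 2, wildtype arsenite replicate 3, ATF4-deficient vehicle replicate 1 or ATF4-deficient arsenite replicate 2. The difference for Inhba was -0.76 in ATF4-deficient and -0.67 in wildtype neurons, while that for Egr3 was -0.26 in ATF4-deficient and -0.80 in wildtype neurons. Fos differed by -0.80 (SE 0.24, adjusted p = 0.116). Among the best expressed members, Arc differed by -0.05 (adjusted p = 0.854), Homer1 by -0.23 (adjusted p = 0.52) and Nrn1 by 0.08 (adjusted p = 0.787). The count of falls in the list was 4 without wildtype vehicle replicate 1, ATF4-deficient vehicle replicate 1 or ATF4-deficient arsenite replicate 2, and 5 without wildtype arsenite replicate 3.

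The promoter windows of the 3 NR4A genes, all of which fell, and of Rgs4, the largest fall, are shown. They are RefSeq sequences (GRCm38.p6): Nr4a1 at chr15:101266596-101266895 on the plus strand, Nr4a2 at chr2:57123954-57124253 on the minus strand, Nr4a3 at chr4:48045055-48045354 on the plus strand and Rgs4 at chr1:169747593-169747892 on the minus strand. Each is written 5′ to 3′ along its gene, and capitals mark TGACG, the core of the cAMP response element that CREB and related factors read, on either strand.
Nr4a1: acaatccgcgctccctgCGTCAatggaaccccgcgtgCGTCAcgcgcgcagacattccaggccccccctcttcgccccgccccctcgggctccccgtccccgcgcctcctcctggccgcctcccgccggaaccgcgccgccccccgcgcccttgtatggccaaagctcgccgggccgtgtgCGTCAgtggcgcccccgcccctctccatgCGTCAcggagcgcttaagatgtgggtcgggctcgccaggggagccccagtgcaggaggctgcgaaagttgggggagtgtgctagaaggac
Nr4a2: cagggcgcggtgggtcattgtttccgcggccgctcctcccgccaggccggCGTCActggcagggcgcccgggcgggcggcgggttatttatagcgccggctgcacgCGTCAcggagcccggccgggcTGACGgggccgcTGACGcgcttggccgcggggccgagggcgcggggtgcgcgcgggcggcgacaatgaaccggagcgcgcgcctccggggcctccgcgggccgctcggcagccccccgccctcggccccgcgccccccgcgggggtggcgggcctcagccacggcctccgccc
Nr4a3: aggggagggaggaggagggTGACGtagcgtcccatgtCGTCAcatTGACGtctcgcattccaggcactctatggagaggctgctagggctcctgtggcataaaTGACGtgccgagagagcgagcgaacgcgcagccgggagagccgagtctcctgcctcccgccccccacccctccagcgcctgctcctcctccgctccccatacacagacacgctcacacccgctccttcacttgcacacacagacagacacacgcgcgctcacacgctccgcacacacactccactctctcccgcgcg
Rgs4: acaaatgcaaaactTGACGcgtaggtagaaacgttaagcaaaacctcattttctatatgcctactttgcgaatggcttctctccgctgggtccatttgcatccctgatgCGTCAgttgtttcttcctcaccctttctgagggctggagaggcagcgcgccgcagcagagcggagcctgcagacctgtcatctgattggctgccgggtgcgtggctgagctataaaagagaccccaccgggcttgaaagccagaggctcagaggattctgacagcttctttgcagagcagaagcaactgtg
Each NR4A window holds 4 matches and that of Rgs4 holds 2. Of the other called activity genes matched in the table, Npas4 holds 2, and Fosl2 and Inhba hold 0. TGACG occurred in 33.2% of windows of genes that fell, 23.1% of those that rose and 24.5% of all windows. These letters lie within TGACGTCA, which occurred in 2.24% of windows of genes that fell, 1.81% of those that rose and 2.45% of all, and can overlap TGACNNNGC, the antioxidant response element, which occurred in 13.9%, 13.6% and 13.3% of the same sets. The heat shock element, searched as alternating GAA and TTC units, occurred in 0.448% of windows of genes that fell, 0.452% of those that rose and 0.502% of all, and TATAAA in 9.42%, 12.2% and 12.9%. Base composition differed between the sets, and both called sets lay above all genes. Median GC content was 62.3% for genes that fell, 58.0% for those that rose and 56.3% for all, and its part in the motif shares was not tested.

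Adcyap1 encodes the neuropeptide PACAP, which acts through cAMP, and was the sole fall among 21 granin and neuropeptide genes. Adcyap1 lay at 7.02 and 6.80 in ATF4-deficient arsenite arrays, against 8.46 and 8.78 in ATF4-deficient vehicle arrays, and at 6.94, 6.78, 6.80 and 6.71 in wildtype arsenite arrays, against 7.57 and 7.28 in wildtype vehicle arrays. The arsenite arrays of both genotypes lay within a narrow band, and the ATF4-deficient vehicle arrays were the highest (-1.08 log2, SE 0.18, adjusted p = 0.00959). Hdac9, a class IIa histone deacetylase that binds MEF2 factors, was 8.68 and 8.42 in ATF4-deficient arsenite arrays, against 10.13 and 10.52 in ATF4-deficient vehicle arrays, and 8.78, 8.36, 8.34 and 8.81 in wildtype arsenite arrays, against 9.58 and 9.48 in wildtype vehicle arrays. There was no overlap, and signal was 2.47-fold lower (-1.31 log2, SE 0.17, adjusted p = 0.00235). Hdac5 of the same class fell by 0.61 (SE 0.14, adjusted p = 0.0393), a call that survived the omission of wildtype arsenite replicate 1 or 4 and of no other array. They were 2 falls among 7 class IIa deacetylase and MEF2 genes, and Mef2c differed by -0.32 (adjusted p = 0.241).

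Npy1r, the Gi-coupled Y1 receptor for neuropeptide Y, lay at 8.17 and 7.96 in ATF4-deficient arsenite arrays, against 9.21 and 9.21 in ATF4-deficient vehicle arrays, and at 8.27, 7.86, 7.76 and 8.31 in wildtype arsenite arrays, against 8.95 and 8.93 in wildtype vehicle arrays. There was no overlap (-0.997 log2, SE 0.12, adjusted p = 0.00147), and the difference was -1.14 in ATF4-deficient and -0.89 in wildtype neurons. Grm2, a Gi-coupled glutamate receptor, fell by 0.94 (SE 0.16, adjusted p = 0.00957). Both subunits of the nitric oxide receptor guanylyl cyclase fell, as 2 of 10 genes for cGMP signalling. Gucy1a1, its alpha subunit, was 9.30 and 9.05 in ATF4-deficient arsenite arrays, against 10.21 and 10.32 in ATF4-deficient vehicle arrays, and 9.92, 9.50, 9.32 and 9.96 in wildtype arsenite arrays, against 10.63 and 10.55 in wildtype vehicle arrays. Gucy1b1, its beta subunit, was 9.80 and 9.79 in ATF4-deficient arsenite arrays, against 10.45 and 10.55 in ATF4-deficient vehicle arrays, and 10.06, 9.93, 9.73 and 10.09 in wildtype arsenite arrays, against 10.80 and 10.48 in wildtype vehicle arrays. Neither gene's arsenite arrays overlapped its vehicle arrays, and the differences were -0.99 (SE 0.12, adjusted p = 0.0023) for Gucy1a1 and -0.69 (SE 0.09, adjusted p = 0.00235) for Gucy1b1. Both calls were kept with any single array left out, whereas the alternative alpha subunit gene Gucy1a2 differed by 0.22 (adjusted p = 0.155).

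Potassium channel genes counted 5 falls (17.9%, against 1.28% of all genes) and 0 rises among 28, with a median of -0.16 and 4 to 6 falls when single arrays were left out. Kcnk9, the acid-sensitive background channel TASK-3, lay at 8.40 and 8.10 in ATF4-deficient arsenite arrays, against 9.28 and 9.32 in ATF4-deficient vehicle arrays, and at 8.34, 7.81, 7.63 and 8.27 in wildtype arsenite arrays, against 8.80 and 8.72 in wildtype vehicle arrays. All arsenite arrays were below all vehicle arrays, and the difference was -0.88 (SE 0.14, adjusted p = 0.00769). Kcnj3, the G protein-gated channel GIRK1, fell by 0.67 (SE 0.14, adjusted p = 0.0255), at -1.12 in ATF4-deficient and -0.33 in wildtype neurons, a call lost without wildtype arsenite replicate 3, ATF4-deficient vehicle replicate 1 or ATF4-deficient arsenite replicate 1 or 2. Kcnq5, an M-current subunit, fell by 0.58 (SE 0.10, adjusted p = 0.0122), and Kcnv1, a silent modifier subunit, fell by 0.66 (SE 0.09, adjusted p = 0.00444). Kcnip2, an A-current accessory protein with signal near the dim reference, fell by 0.87 (SE 0.15, adjusted p = 0.0133) and lost the call without wildtype vehicle replicate 1 or 2. The BK channel gene Kcnma1 differed by -0.01 (adjusted p = 0.98).

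Snx7, a sorting nexin of endosomal membranes, had the smallest p of all falls. Snx7 lay at 7.42 and 7.59 in ATF4-deficient arsenite arrays, against 8.75 and 8.85 in ATF4-deficient vehicle arrays, and at 7.63, 7.39, 7.55 and 7.75 in wildtype arsenite arrays, against 8.75 and 8.75 in wildtype vehicle arrays. The vehicle arrays of both genotypes were nearly level and stood clear of the highest arsenite array, and signal was 2.34-fold lower (-1.22 log2, SE 0.08, adjusted p = 2.96e-05). Dok5, a docking protein of receptor tyrosine kinases, was 7.89 and 8.03 in ATF4-deficient arsenite arrays, against 8.89 and 9.01 in ATF4-deficient vehicle arrays, and 8.25, 8.17, 7.86 and 8.38 in wildtype arsenite arrays, against 9.09 and 9.10 in wildtype vehicle arrays. It fell without overlap (-0.95 log2, SE 0.09, adjusted p = 0.000598), with differences of -0.99 in ATF4-deficient and -0.93 in wildtype neurons. Arhgap29, an inactivator of RhoA, lay at 7.15 and 6.81 in ATF4-deficient arsenite arrays, against 7.72 and 8.10 in ATF4-deficient vehicle arrays, and at 7.03, 6.82, 6.83 and 6.91 in wildtype arsenite arrays, against 7.93 and 7.91 in wildtype vehicle arrays. Here too the groups did not meet (-0.98 log2, SE 0.09, adjusted p = 0.000598). Nwd2 fell by 1.19 (SE 0.14, adjusted p = 0.0016). Nudt4, a diphosphoinositol polyphosphate phosphohydrolase, and Ndnf, a secreted neurotrophic factor, were picked out after their values were seen for small standard errors: Nudt4 fell by 0.88 (SE 0.07, adjusted p = 0.000248) and Ndnf fell by 0.88 (SE 0.07, adjusted p = 0.000188).

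Met, the receptor for hepatocyte growth factor, was less even. Met was 8.45 and 8.31 in ATF4-deficient arsenite arrays, against 8.90 and 8.92 in ATF4-deficient vehicle arrays, and 8.99, 8.20, 8.36 and 9.44 in wildtype arsenite arrays, against 10.04 and 10.15 in wildtype vehicle arrays. The ranges met, since wildtype arsenite replicates 1 and 4 lay above the ATF4-deficient vehicle arrays. The difference was -0.998 (SE 0.23, adjusted p = 0.0396), and the call was lost without wildtype vehicle replicate 1 or 2, wildtype arsenite replicate 1 or 3, ATF4-deficient vehicle replicate 1 or 2 or ATF4-deficient arsenite replicate 2. Hapln1, the link protein of perineuronal nets, fell by 1.18 (SE 0.16, adjusted p = 0.00346) with signals around the dim reference. In the matrix list of 23 genes Hapln1 and the protease Mmp24 (-0.34, adjusted p = 0.0182) fell and Adamts18 rose, with 1 fall left without wildtype vehicle replicate 2 or ATF4-deficient vehicle replicate 2.

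The synaptic lists held 5 falls and 1 rise: 18.8% of postsynaptic, 9.52% of ionotropic receptor and 5.56% of presynaptic genes passed, beside 2.63% of all genes. Of 16 postsynaptic genes the adhesion proteins Nlgn2 (-0.49, adjusted p = 0.027) and Lrrtm1 (-0.42, adjusted p = 0.0174) and the scaffold Shank3 (-0.34, adjusted p = 0.0178) fell, a count of 0 without wildtype vehicle replicate 1 and of 1 without wildtype vehicle replicate 2 or ATF4-deficient vehicle replicate 1. Of 18 presynaptic genes the priming factor Unc13a fell (-0.40, adjusted p = 0.0178), a call lost without wildtype vehicle replicate 1 or 2 or ATF4-deficient vehicle replicate 2. Among 21 ionotropic receptor subunits the GABA-A subunit Gabra5 fell, at 10.63 and 10.75 in ATF4-deficient arsenite arrays, against 11.31 and 11.41 in ATF4-deficient vehicle arrays, and at 10.86, 10.93, 10.83 and 11.01 in wildtype arsenite arrays, against 11.32 and 11.30 in wildtype vehicle arrays. That difference of -0.52 (SE 0.07, adjusted p = 0.00411) was without overlap. The AMPA receptor subunit Gria4 rose by 0.32 (adjusted p = 0.0422), a call that survived the omission of wildtype arsenite replicate 4 or wildtype vehicle replicate 1 and of no other array.

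Of 21 cholesterol and fatty acid synthesis genes 20 had negative differences, with a median of -0.20, and 2 fell: Mvd of the mevalonate pathway (-0.64 log2, SE 0.14, adjusted p = 0.0377) and Fasn, fatty acid synthase (-0.58 log2, SE 0.14, adjusted p = 0.0477). Neither call was stable, and the count was 0 without wildtype vehicle replicate 2, wildtype arsenite replicate 1, 2 or 3, ATF4-deficient vehicle replicate 1 or either ATF4-deficient arsenite array, and 1 without ATF4-deficient vehicle replicate 2. Hmgcs1, an early enzyme of the pathway, differed by -0.37 (adjusted p = 0.0771) without overlap of its arrays. Of 12 feedback genes of MAP kinase signalling, Spry2 (-0.64, SE 0.12, adjusted p = 0.0153) and the ERK phosphatase Dusp6 (-0.53, SE 0.11, adjusted p = 0.0279) fell; the call of Dusp6 was lost without wildtype vehicle replicate 1 or 2, wildtype arsenite replicate 2, ATF4-deficient vehicle replicate 1 or 2 or ATF4-deficient arsenite replicate 2. Of 32 guidance genes the plexin Plxnc1 rose (0.71 log2, SE 0.13, adjusted p = 0.0174) and Plxnd1 (-0.51), Ntng2 (-0.47) and Unc5c (-0.39) fell, with 0 rises and 1 fall without wildtype vehicle replicate 1 or ATF4-deficient vehicle replicate 2.

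**Figure D3:**
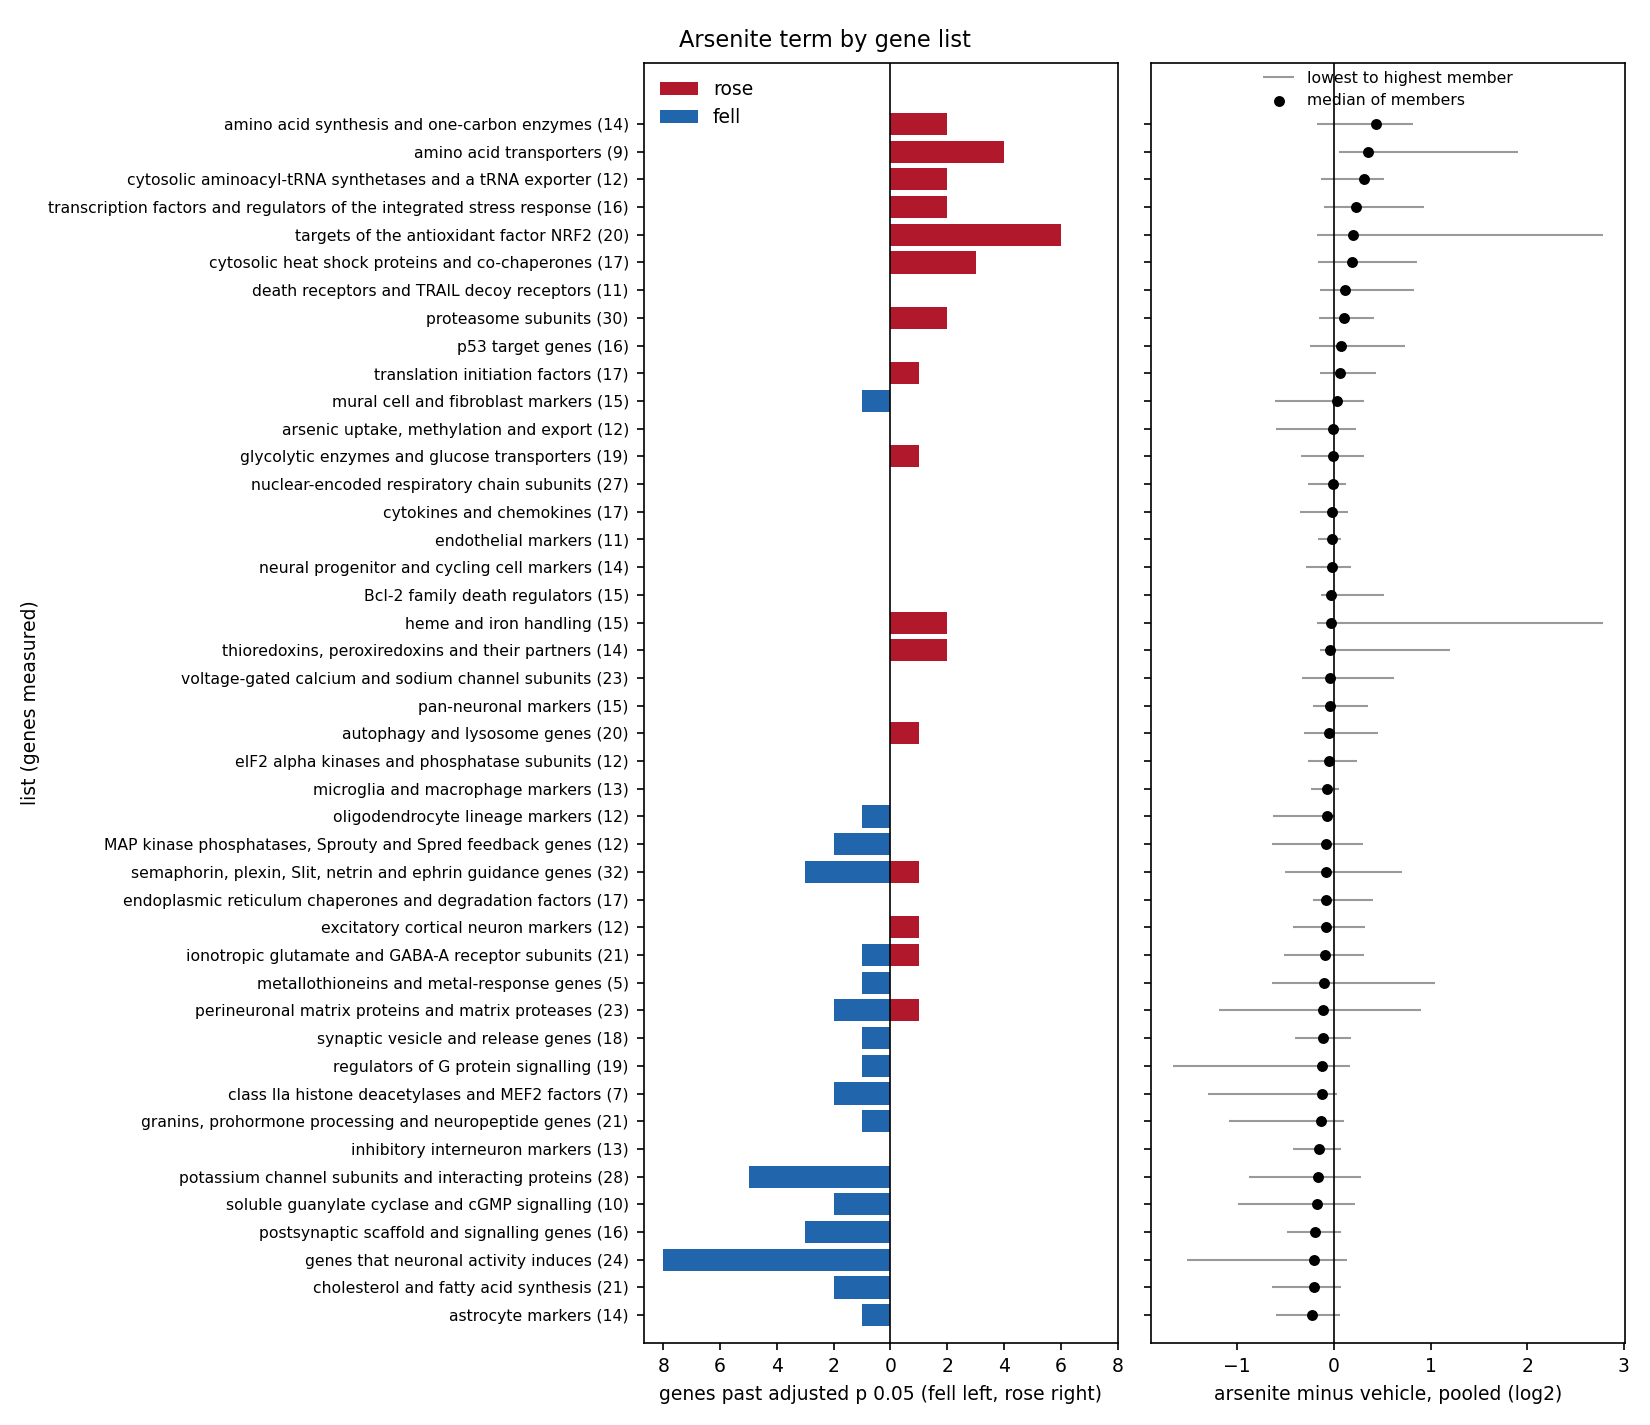
Left, how many genes passed the adjusted p of 0.05 in each of the 44 gene lists (1 line per list, genes measured in brackets), with falls to the left of 0 and rises to the right. Right, the median arsenite minus vehicle log2 difference of each list (point) and the range of its members (line). NRF2 targets have the most rises, 6, and activity-induced genes the most falls, 8, while the medians run from 0.44 for amino acid synthesis to -0.23 for astrocyte markers.

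Of 15 pan-neuronal and 13 inhibitory neuron markers 0 passed, and Map2, a dendritic protein, had an adjusted p of 0.991. Snap25, a vesicle fusion protein, differed by -0.13 (adjusted p = 0.565) and Stmn2, a tubulin regulator, by -0.07 (adjusted p = 0.766). Slc17a6, the vesicular glutamate transporter 2, rose by 0.32 (adjusted p = 0.027) among 12 excitatory neuron markers, a call lost without wildtype vehicle replicate 1 or 2, wildtype arsenite replicate 2, ATF4-deficient vehicle replicate 1 or 2 or ATF4-deficient arsenite replicate 1. Of 14 astrocyte markers 1 fell and 13 had negative differences, with a median of -0.23. The mean signal over that list was 7.06 to 7.40 on ATF4-deficient arsenite arrays, against 7.15 to 7.48 on ATF4-deficient vehicle arrays, and 7.48 to 7.96 on wildtype arsenite arrays, against 7.98 to 8.16 on wildtype vehicle arrays. Sox9, a glial transcription factor, was the called member (-0.42 log2, SE 0.10, adjusted p = 0.0427), and the call survived the omission of ATF4-deficient vehicle replicate 2 or wildtype arsenite replicate 4 and of no other array. Slc1a3, the astrocytic glutamate transporter, differed by -0.12 (SE 0.26, adjusted p = 0.893). Pdgfra, a receptor of oligodendrocyte precursors and of fibroblasts, was 7.86 and 7.80 in ATF4-deficient arsenite arrays, against 8.06 and 8.43 in ATF4-deficient vehicle arrays, and 8.30, 8.22, 8.07 and 8.36 in wildtype arsenite arrays, against 8.78 and 9.22 in wildtype vehicle arrays. It fell by 0.61 (SE 0.11, adjusted p = 0.0158), and Olig1 of the same lineage differed by -0.63 (adjusted p = 0.0917). None of 13 microglial, 11 endothelial or 14 progenitor markers passed. The part of glial cell numbers in the falls reported here was not tested.

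Outside the lists, Slc44a5, a member of the choline transporter-like family, had the smallest p of all rises. Slc44a5 lay at 9.34 and 9.31 in ATF4-deficient arsenite arrays, against 8.19 and 8.28 in ATF4-deficient vehicle arrays, and at 9.21, 9.12, 8.98 and 9.02 in wildtype arsenite arrays, against 8.09 and 8.14 in wildtype vehicle arrays. The groups were far apart relative to their spread, and signal was 2.03-fold higher (1.02 log2, SE 0.07, adjusted p = 2.96e-05). Bbx, an HMG-box transcription factor, lay at 7.88 and 7.92 in ATF4-deficient arsenite arrays, against 7.04 and 6.67 in ATF4-deficient vehicle arrays, and at 7.59, 7.73, 7.50 and 7.47 in wildtype arsenite arrays, against 6.89 and 6.97 in wildtype vehicle arrays. Arsenite was above vehicle throughout (0.82 log2, SE 0.10, adjusted p = 0.00204). Adamts18, a secreted metalloprotease, rose by 0.90 (SE 0.10, adjusted p = 0.00147) from vehicle signals under the dim reference. Tas2r108, a bitter taste receptor gene, rose by 1.10 (SE 0.11, adjusted p = 0.000598) with vehicle signals of 5.16 to 5.39, all under it, as were the 4 wildtype arsenite signals. All 35 measured bitter taste receptor genes had at least 1 group mean under the dim reference. Smarca5-ps, a pseudogene of a chromatin remodeller, rose by 1.14 (SE 0.19, adjusted p = 0.00957), with all 4 vehicle and 2 of the 6 arsenite signals under the dim reference. The sizes of these differences are uncertain. The source gene Smarca5, looked up after these values were seen, differed by 0.23 (adjusted p = 0.377), and whether the probes tell them apart was not examined.

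Zinc finger genes were frequent among the rises. Of 370 measured genes named Zfp, counted after the values were seen, 22 rose (5.95%, against 1.35% of all genes) and 2 fell, with a median of 0.07. Zfp457 lay at 6.39 and 6.66 in ATF4-deficient arsenite arrays, against 4.57 and 5.78 in ATF4-deficient vehicle arrays, and at 5.89, 5.92, 6.31 and 5.81 in wildtype arsenite arrays, against 4.53 and 4.98 in wildtype vehicle arrays. Arsenite exceeded vehicle on every array (1.28 log2, SE 0.20, adjusted p = 0.00705), but all 4 vehicle signals and 5 of the 6 arsenite signals were under the dim reference, so the size of the difference is uncertain. Zfp808 lay at 8.89 and 8.89 in ATF4-deficient arsenite arrays, against 8.04 and 8.17 in ATF4-deficient vehicle arrays, and at 8.54, 8.52, 8.43 and 8.40 in wildtype arsenite arrays, against 7.96 and 7.88 in wildtype vehicle arrays, a rise of 0.65 with a small SE of 0.07 (adjusted p = 0.00105). Zfp982 (1.03 log2, SE 0.23, adjusted p = 0.0365) and Zfp975 (0.84 log2, SE 0.17, adjusted p = 0.0257) rose too, the first from vehicle signals under the dim reference, but the first call was lost without wildtype vehicle replicate 1, wildtype arsenite replicate 2 or 3, ATF4-deficient vehicle replicate 1 or 2 or ATF4-deficient arsenite replicate 2, and the second without wildtype vehicle replicate 1 or ATF4-deficient arsenite replicate 1 or 2. The family's count of rises was 11 without ATF4-deficient vehicle replicate 1 or ATF4-deficient arsenite replicate 2, 13 without wildtype vehicle replicate 1 and 14 without ATF4-deficient vehicle replicate 2. Protocadherin beta genes, adhesion molecules of neuronal identity that lie in 1 cluster, had 22 positive differences of 22, with a median of 0.29, and 5 rises (22.7%, against 1.35% of all genes). That count was 1 without wildtype vehicle replicate 1 or ATF4-deficient vehicle replicate 1, 2 without ATF4-deficient vehicle replicate 2 or either ATF4-deficient arsenite array, and 3 without wildtype arsenite replicate 2. Many members of both families are near copies, and how far their probe sets share signal was not examined.

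Sfmbt2, a Polycomb-group gene picked out because it holds a large microRNA cluster in an intron, lay at 7.68 and 7.50 in ATF4-deficient arsenite arrays, against 6.52 and 6.51 in ATF4-deficient vehicle arrays, and at 7.27, 7.16, 7.07 and 6.82 in wildtype arsenite arrays, against 6.56 and 6.58 in wildtype vehicle arrays. It was higher on every arsenite array than on any vehicle array and rose by 0.75 (SE 0.12, adjusted p = 0.00742). Of 71 microRNA genes annotated within it 22 were measured, 17 of them had positive differences, and 3 rose. Mir669k was 8.84 and 8.68 in ATF4-deficient arsenite arrays, against 7.28 and 7.52 in ATF4-deficient vehicle arrays, and 8.61, 8.29, 8.19 and 8.22 in wildtype arsenite arrays, against 7.17 and 7.68 in wildtype vehicle arrays. It rose by 1.10 (SE 0.13, adjusted p = 0.00174). Mir669j rose by 1.10 (SE 0.12, adjusted p = 0.0012) and Mir669i by 0.84 (SE 0.12, adjusted p = 0.00581), and all 3 were free of overlap between arsenite and vehicle. Such probe sets cannot tell a mature microRNA from its precursor or host transcript, and copies of the cluster are near identical.

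Of 483 measured microRNA genes 9 rose (1.86%) and 3 fell, beside rises of 1.35% and falls of 1.28% over all genes. The count of rises was 5 without ATF4-deficient vehicle replicate 1 and 14 without wildtype arsenite replicate 4, and that of falls was 1 without wildtype vehicle replicate 1, ATF4-deficient vehicle replicate 2 or ATF4-deficient arsenite replicate 2. Mature sequences in RefSeq (GRCm38.p6) matched 9 of the 12 called genes. The neighbours Mir181a-2 and Mir181b-2 are shown because they rose together and their products share the seed ACAUUCA, and Mir137, a neuronal microRNA, because it fell. Capitals mark the seed, bases 2 to 8. Positions are chr2:38852741-38852763 for miR-181a-5p, chr2:38853845-38853868 for miR-181b-5p and chr3:118433901-118433923 for miR-137-3p, all on the plus strand.
miR-181a-5p: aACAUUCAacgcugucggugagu
miR-181b-5p: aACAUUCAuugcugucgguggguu
miR-137-3p: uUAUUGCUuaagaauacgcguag
Mir181a-2 lay at 7.56 and 7.75 in ATF4-deficient arsenite arrays, against 6.84 and 7.09 in ATF4-deficient vehicle arrays, and at 6.999, 7.26, 7.09 and 7.02 in wildtype arsenite arrays, against 6.74 and 6.62 in wildtype vehicle arrays. ATF4-deficient arrays were higher and arsenite lay above vehicle within each genotype (0.53 log2, SE 0.09, adjusted p = 0.0101). Mir181b-2 rose by 0.65 (SE 0.13, adjusted p = 0.02), a call lost without wildtype vehicle replicate 1 or 2, ATF4-deficient vehicle replicate 1 or ATF4-deficient arsenite replicate 1. Mir137 signals were 2.95 to 3.48 in arsenite arrays and 3.42 to 4.14 in vehicle arrays, all far under the dim reference. Its groups overlapped, and the call on a difference of -0.56 (SE 0.13, adjusted p = 0.0496) survived the omission of wildtype arsenite replicate 1 or wildtype vehicle replicate 2 and of no other array.

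The pooled value averages the genotypes, with a weight of 42.9% on the ATF4-deficient and 57.1% on the wildtype difference. In a joint fit of all arrays with a mean per group, arsenite called 256 genes in ATF4-deficient neurons (1.15% of all) and 107 in wildtype neurons (0.482%). The residual variance of each gene came from all groups together, so each count also depends on arrays of the other genotype. Both counts share arrays with the pooled one. A test of the difference between genotypes called 0 genes in limma, with 1330 at an unadjusted p under 0.05 and a lowest adjusted p of 0.34. Among the 583 pooled calls, 89 had an unadjusted interaction p under 0.05, and the largest interaction, ATF4-deficient minus wildtype, was that of Npas4 at -1.32 (adjusted p = 0.34). Adcyap1 stood at -1.71 in ATF4-deficient and -0.61 in wildtype neurons, an interaction of -1.09 (adjusted p = 0.34), and Nr4a1 at -1.34 and -0.34 in the same order, an interaction of -0.99 (adjusted p = 0.34). Hmox1 differed by 2.18 in ATF4-deficient and 3.25 in wildtype neurons (interaction -1.07, adjusted p = 0.828), and Ddit3 by 0.25 and 1.06 (interaction -0.81, adjusted p = 0.701). Slc44a5 stood at 1.09 and 0.97, Snx7 at -1.30 and -1.17 and Gucy1b1 at -0.70 and -0.69. With 2 arrays in 3 of the 4 groups, interactions of this size could not be told from 0 after adjustment.

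**Figure D4:**
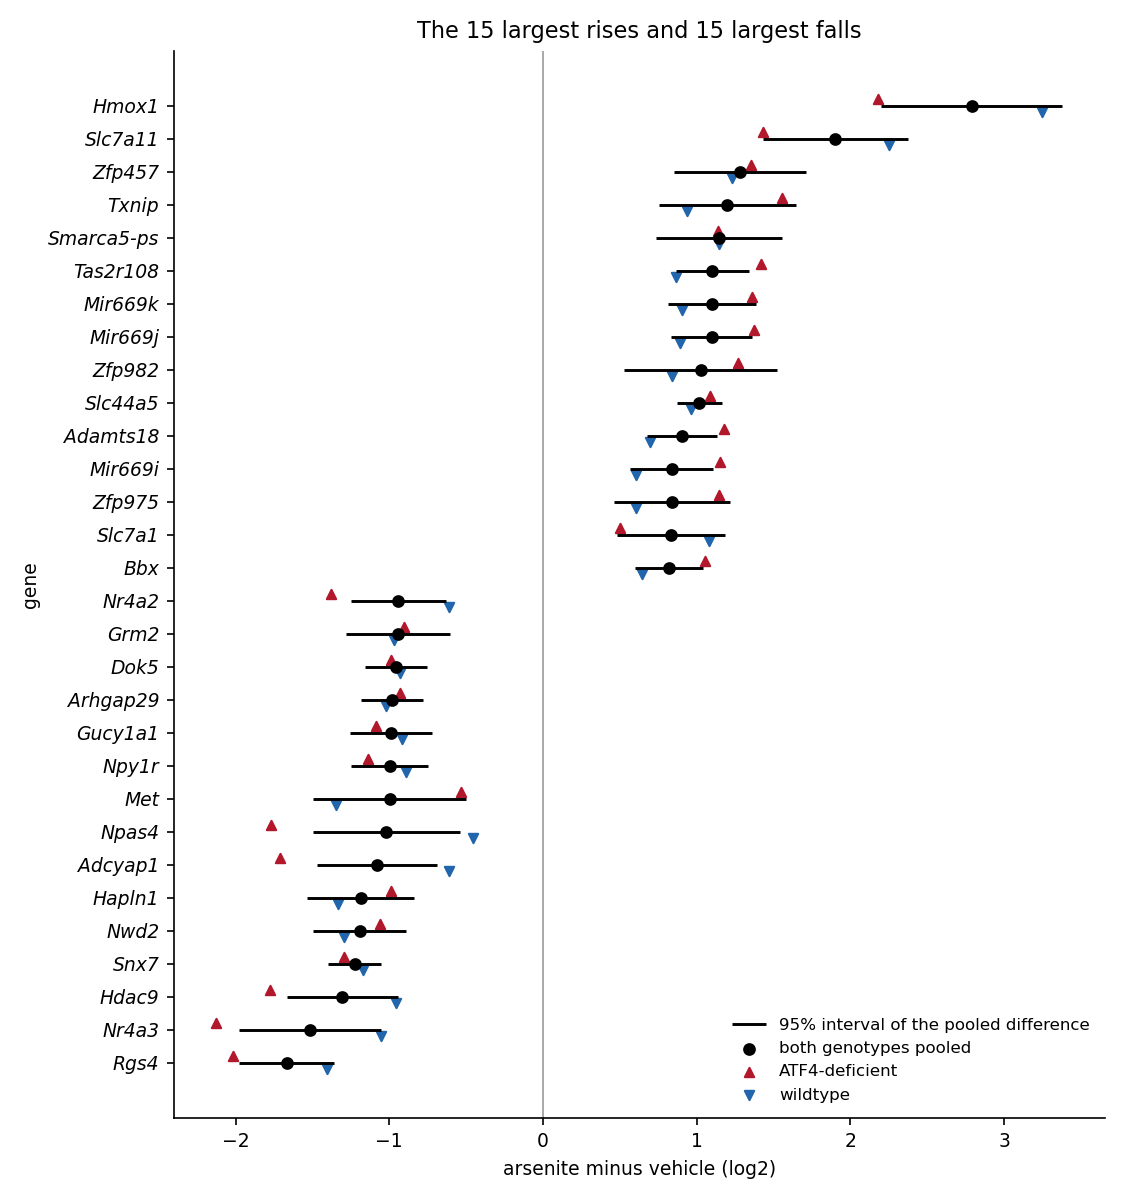
Arsenite minus vehicle log2 difference for the 15 largest rises and 15 largest falls named by rule, as the pooled estimate with its 95% interval and as the difference within ATF4-deficient and within wildtype neurons. Slc44a5, Snx7 and Arhgap29 show nearly the same value in both genotypes, whereas Hmox1, Npas4 and Adcyap1 differ more between them.

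Of the 30 genes named as the 15 largest rises and 15 largest falls, 25 kept their call with every single array left out. The exceptions were Zfp982, Zfp975, Slc7a1, Npas4 and Met. The call of Slc7a1 was lost without wildtype vehicle replicate 1 or ATF4-deficient vehicle replicate 2. No direction changed: Rgs4 ranged from -1.77 to -1.53, Slc44a5 from 0.99 to 1.04, and Npas4 from -1.24 to -0.82.

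**Figure D5:**
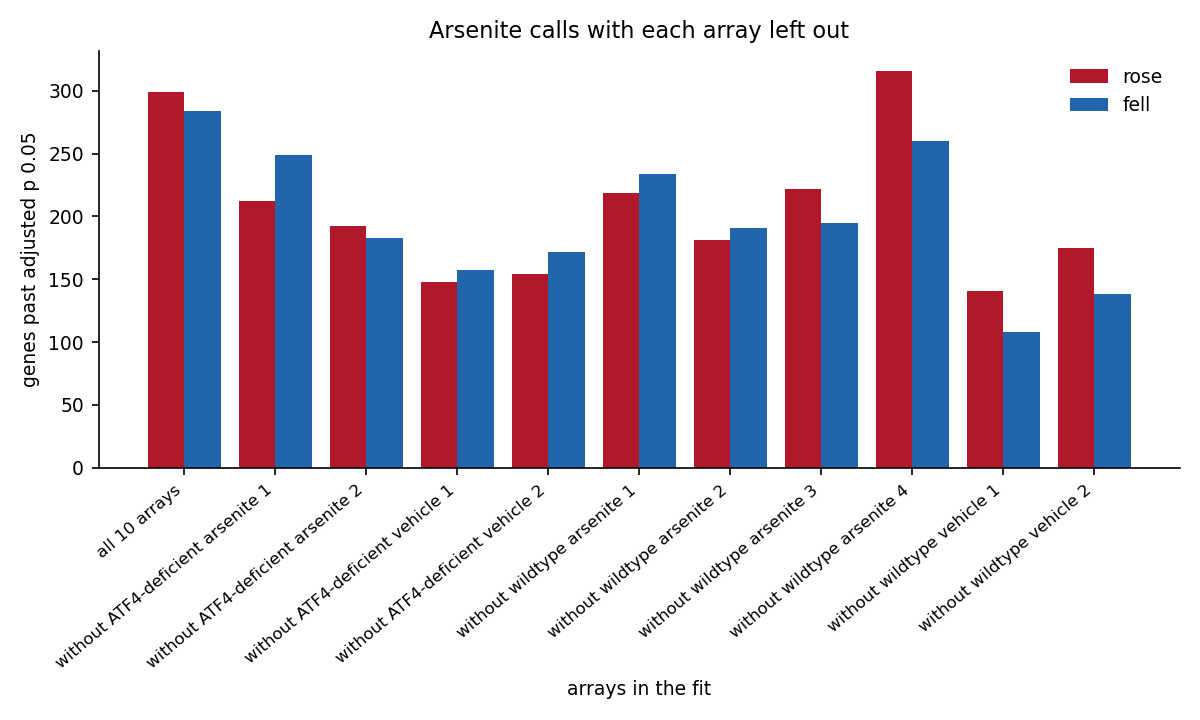
Number of genes called at an adjusted p of 0.05 with each of the 10 arrays left out in turn, split into rises and falls, beside the counts of 299 and 284 with all arrays. The counts are lowest without wildtype vehicle replicate 1, at 141 rises and 108 falls, and nearest to the full set without wildtype arsenite replicate 4, at 316 and 260.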

How the data were processed

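The authors deposited log2 expression values for 10 arrays, normalised by robust multiarray average (RMA) in Partek 6.6, per the design text of the series and the processing notes of the submitters. RMA gives the probe intensities of all arrays the same distribution, which largely removes a change common to most transcripts. Medians of the deposited probe set values still ran from 6.75 to 6.81. Scanner files were not used here. The sources used here give neither the genome build behind the array nor scan dates or batches. Of 41345 probe sets, 23521 had a single gene symbol and 23328 of these matched an Entrez identifier of GRCm38.p6. The brightest probe set stood for each of the 1082 genes with several, which left 22180 genes, and none were removed for low signal. Signals of 1373 olfactory and vomeronasal receptor genes (median 4.52, 90th percentile 6.63) served as the dim reference.

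An additive model of genotype and treatment was fitted with limma 3.58.1 in R 4.3.3 (lmFit and eBayes, 7 residual degrees of freedom, prior degrees of freedom 5.13, prior SD 0.125), and adjusted p-values follow Benjamini and Hochberg over all genes. The values within each genotype and the interaction came from a fit with a mean per group. The number of arrays limits the precision. On simulated data with 22180 genes the model recovered 100% of changes of 1 log2 unit and 88% of changes of 0.5. The simulation had independent normal noise, the same change in both genotypes and no outlying array, so recovery in the real data may be lower. Pairing by the replicate numbers in the titles was not established, and the model has no such block.

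By rule the text names 15 rises and 15 falls, the largest among called genes whose arsenite and vehicle arrays did not overlap within either genotype, leaving out clone and model names and chemosensory receptors of the olfactory and vomeronasal kind. Added were up to 4 called and up to 3 of the best expressed uncalled members of each of 44 gene lists (729 of 785 entries measured), with Atf4 and Xist. Outside that rule, chosen after their values were seen, are Arrdc3, Arrdc4, Egr1, Egr3, Fos, Fosl2, Gclm, Gsr, Inhba, Kcnq5, Mir137, Mir181a-2, Mir181b-2, Ndnf, Nqo1, Nudt4, Sfmbt2, Smarca5, Zfp808 and the counts over gene families. The members and lists were chosen with earlier results of these data known.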

Additional observations from a re-analysis of the deposited data

Results flagged for a closer look

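A sample stood far from the others of its group for 2 of the 76 genes examined this way, and chance alone flags about 1 in 20 groups of 4. Mir669i was at 6.877 in wildtype arsenite replicate 1, against 6.586 to 6.634 in the other 3 wildtype arsenite arrays. Nr4a1 was at 7.361 in wildtype arsenite replicate 3, against 7.608 to 7.622 in the other 3.

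Probe sets that carry several gene symbols entered no comparison above. Tested apart with the same model, 72 of 1814 passed an adjusted p of 0.05 (3.97%), 60 of them higher and 12 lower with arsenite. They name no single gene. Of 16010 probe sets without an annotation entry 0 passed in limma, with 1440 at an unadjusted p under 0.05 and a lowest adjusted p of 0.0627.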

How the results depend on the processing

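No result changed direction while called. Without a genotype term the model called 224 genes (118 rises, 106 falls), and 7 of the 30 largest named changes were lost, Slc7a11 and Hapln1 among them. With 2 arrays in each group 390 genes were called (228 rises, 162 falls), and a test against a minimum of 0.2 log2 left 47 genes (21 rises, 26 falls). Leaving out single arrays gave 249 to 576 called genes, 141 to 316 rises and 108 to 260 falls. Within genotypes it gave 50 to 200 calls in ATF4-deficient neurons and 0 to 75 in wildtype neurons, the 0 without wildtype vehicle replicate 1, so the wildtype count rests on that array. With the replicate number as a block the additive model called 689 genes, the ATF4-deficient comparison 286 and the wildtype comparison 17, against 107 without it; no label says that a number marks a shared source. Deviations of arrays of the same number correlated at 0.403 between the ATF4-deficient groups and at -0.0555 between the vehicle groups, over all pairs of groups between these values, so pairing by number was not established. Xist lay at 11.75 and 12.26 on ATF4-deficient vehicle and arsenite replicates 1, and at 6.26 and 6.70 on replicates 2. In wildtype arrays it lay at 7.88 and 8.09 on vehicle and arsenite replicates 1, but at 11.89 and 6.95 on replicates 2. Whether a number marks a shared source was not tested. The interaction called 0 genes with the replicate block and with any single array left out. Counts kept within 1.5 times of 583 were 682 with equal genotype weights, 743 among 13524 genes above the dim reference, 564 with probe sets averaged, 508 with equal array medians (45.5% rises against 51.3%), 702 after quantile normalisation, 646 with array weights, 605 with a robust trended fit and 717 with Xist as a covariate. The 4 vehicle arrays limit the precision of all of these counts.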

Other observations

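Shares of called genes varied between chromosomes, beside rises of 1.35% and falls of 1.28% over all genes. Rises were 2.57% on chromosome 3 (27 of 1051), 2.56% on the X chromosome (23 of 899), 2.51% on chromosome 18 (13 of 518) and 2.33% on chromosome 13 (20 of 858). Falls were 2.86% on chromosome 15 (24 of 839) and 2.06% on chromosome 5 (26 of 1261), against 0.556% on the X chromosome (5 of 899). These counts were looked up after the calls were made and were not tested. Xist signal differed between arrays within both treatments, and its part in the X chromosome count was not tested.

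Genes with promoter GC content of 12.3% to 51.3% had 67 rises and 31 falls of 5801, and those with 62.0% to 89.3% had 90 rises and 116 falls of 5534. Falls were thus 0.534% of the first set and 2.10% of the second, against rises of 1.15% and 1.63%. Over 16918 genes, promoter GC content correlated with the arsenite difference at a Pearson r of -0.0422. Its correlation with the deviation of single arrays from the gene mean ran from -0.209 (wildtype arsenite replicate 3) to 0.235 (wildtype arsenite replicate 2). These are descriptions across genes, which are not independent replicates.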
